A study of Mus musculus with 211 samples.

Results

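Single cells of the adult mouse cochlea were divided by the transcript of *Lfng*, the gene whose reporter was used to collect them. Of 211 single-cell libraries, 164 had at least 50000 reads on genes and were considered further. The sides were selected on their own *Lfng* reads: 84 cells had 10 or more and 52 cells had 0. Another 28 cells, with 1 to 9 reads, belonged to neither side. The *Lfng* reads of the sides are therefore a description of the choice and carry no test. Depth entered the choice too, through the minimum of reads on genes and because *Lfng* was counted in reads. The other genes, the GFP intensity and measures at equal depth were not used.

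*Lfng* (lunatic fringe) encodes a Golgi glycosyltransferase that adds N-acetylglucosamine to O-linked fucose on the extracellular domain of Notch receptors, which changes how well a receptor responds to Delta-like as opposed to Jagged ligands. A bound receptor is cleaved by ADAM proteases and gamma-secretase, and its intracellular domain joins RBPJ and Mastermind in the nucleus to switch on targets such as *Hes1* and *Hey1*. In the developing organ of Corti this pathway separates hair cells from the supporting cells (SCs) around them, and *Lfng* marks SCs.

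The cells came from CD1 mice of either sex that carried the BAC transgene Tg(Lfng-EGFP)HM340Gsat, in which regulatory sequence of *Lfng* drives EGFP. Every cell carried the reporter, so there was no group without it, and GFP-positive cells were sorted before capture on microfluidic chips. The cells considered came from 8 isolations at P60 (80 cells) and 4 isolations at P120 (84 cells). Cells of 1 isolation, here called a capture, shared a pool of animals, so captures and not cells were taken as replicates. The comparisons used the 7 captures that held at least 3 cells on each side, namely 3 at P60 (19c, 40, 9c) and 4 at P120 (28, 32, 36, 38), with 60 cells that had 10 or more reads and 48 that had 0. Captures 17c and 20c held no cell with 0 reads among the cells considered, and capture 10c held no cell with 10 or more.

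The cells were labelled as SCs, and the markers of SCs were checked first. A list of 14 SC genes, including the transcription factors *Sox2*, *Sox9* and *Prox1*, the gap junction gene *Gjb2* and the tectorial membrane genes *Tecta*, *Tectb* and *Otog*, had a median summed level of 0 CPM on both sides, where CPM are the reads of a gene scaled to an equal total of reads on genes. At least 3 of these genes reached 10 reads in 1 cell with 10 or more *Lfng* reads, in 2 cells with 1 to 9 and in 0 cells with 0 reads. By contrast, at least 3 of 10 leukocyte genes reached 10 reads in 83 of 84 cells and in 50 of 52 cells. The 1 exception with 10 or more *Lfng* reads was a P60 cell of capture 21c with 69 *Lfng* reads, 20113 *Tectb* reads, 6910 *Slc1a3* reads, 28 *Sox9* reads and a GFP intensity of 1000. A second cell of capture 21c had 2 *Lfng* reads, 337 *Sox9* reads and 19979 *Otog* reads. Both lay outside the 7 captures compared. Within these, a cell of capture 9c with 0 *Lfng* reads had 3695 reads of *Gjb6* and 44 of *Gjb2*, both of the SC list. It had 3 leukocyte genes at 10 reads. Among the cells with 0 *Lfng* reads the summed level of the SC list reached 8111 CPM. This was in a cell of capture 28 with 79397 reads on genes, where nearly all of it was 642 reads of *Otogl*. The sides are therefore described below by their *Lfng* reads and not as SCs.

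**Figure D1:**
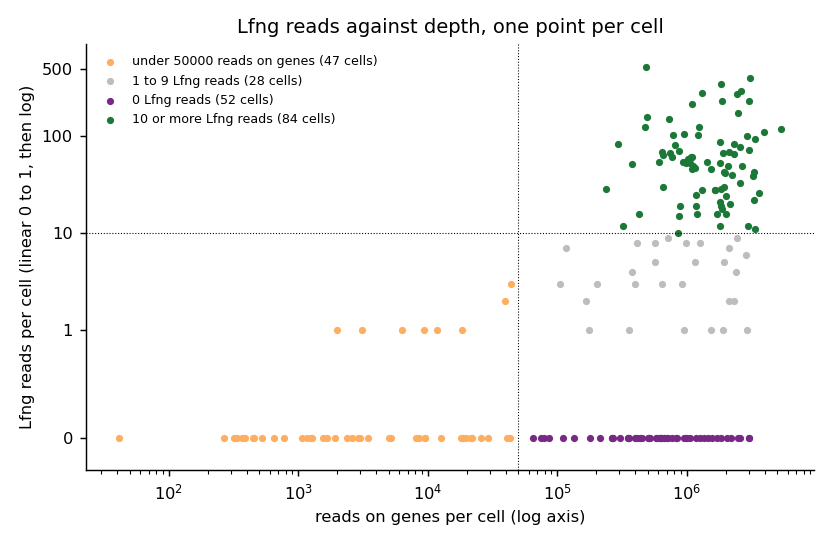
*Lfng* reads (vertical, linear from 0 to 1 and logarithmic above) against reads on genes (horizontal, logarithmic), 1 point per cell for all 211 cells, with dotted lines at 10 *Lfng* reads and at 50000 reads on genes. The 84 cells with 10 or more *Lfng* reads start at a depth of 236592 reads, whereas the 52 cells with 0 reads reach down to 64947.

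*Lfng* (ENSMUSG00000029570.5) lies on chromosome 5 of GRCm38 from 140607320 to 140615545 on the plus strand. The window around its start is shown because the same regulatory region drives the reporter by which the cells were sorted. RefSeq (GRCm38.p6) places it at chr5:140607091-140607390 on the plus strand. Capitals mark TGGGAA and its reverse complement TTCCCA, the core letters bound by RBPJ, searched on both strands.
Lfng: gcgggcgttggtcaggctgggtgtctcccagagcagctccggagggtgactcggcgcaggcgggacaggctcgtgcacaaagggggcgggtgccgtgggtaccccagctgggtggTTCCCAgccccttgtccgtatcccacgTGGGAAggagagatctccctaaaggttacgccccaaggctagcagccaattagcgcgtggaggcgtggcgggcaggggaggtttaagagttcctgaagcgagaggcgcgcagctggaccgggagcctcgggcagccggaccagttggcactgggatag
The window held 2 matches. Of 32851 promoter windows of the same length, 8397, or 25.6%, held at least 1, and a match is only a description of the letters.

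Among the 84 cells chosen for *Lfng*, the reads ran from 10 through a median of 53 to 526, or from 3.28 through 35.7 to 1084 CPM. The highest level was in 1 P120 cell of capture 36, followed by 320 CPM in a cell of capture 19c and 282 CPM in a cell of capture 20c. None of these cells had a gene of the SC list at 10 reads. Summed over the cells of a side, *Lfng* ran from 23.4 CPM in capture 28 to 204 CPM in capture 36, with a median of 52.6 CPM over the 7 captures. At the threshold the order by reads was not the order by level. A cell with 10 reads had 11.8 CPM and one with 11 reads had 3.28 CPM, whereas 2 cells with 9 reads had 12.5 and 3.69 CPM and a cell with 7 reads had 60.5 CPM.

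Zero reads did not mean the same in every cell. At the median depth of the 52 cells, a count of 0 allows up to 4.81 CPM (3 reads, counting error only), and at the lowest depth up to 46.2 CPM. When each cell was thinned at random to 50000 reads, 65 of the 84 cells and 10 of the 28 cells with 1 to 9 reads kept a *Lfng* read.

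Depth stands beside each result because a deep library reaches 10 reads more easily. The 84 cells had a median of 1644757 reads on genes (range 236592 to 5361476) and the 52 cells a median of 623127 (64947 to 3014545). Within captures the mean log10 reads were 6.08 ± 0.233 against 5.80 ± 0.163 (SD, n = 7 captures), a difference of 0.284 that was positive in 6 of 7 captures. Since the choice of the sides favours deep cells on the side with *Lfng*, this is a description and not a test. After thinning to 50000 reads the cells held 1388 ± 719 genes against 1192 ± 575 (SD, n = 7), a difference of 195 that was positive in 5 captures. It did not pass the exact two-sided sign-flip permutation test over captures (p = 0.422, adjusted p = 0.525 over 6 tests that count depth as 1, smallest p possible 0.0156). The range was wide, from 841 fewer genes in capture 32 to 1025 more in capture 9c. Mitochondrial reads made up 1.52% ± 1.31 against 2.61% ± 2.96 (SD, n = 7), a difference of -1.09 points that was most negative in captures 28 (-6.94) and 32 (-2.06) and positive in 4 captures (exact permutation p = 0.375, adjusted p = 0.525). Neither measure passed the test.

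GFP intensity, measured on images of the captured cells and deposited as a score that ran from 31 to 1000 in the cells considered, asks whether cells with the transcript were also the brighter cells of the reporter. Over all captures it ran from 58 through a median of 366 to 1000 in the 84 cells and from 31 through 271.5 to 1000 in the 52 cells, so the sides overlapped over nearly the whole scale. The capture means were 429 ± 102.4 against 359 ± 226 (SD, n = 7 captures), a difference of 69.9 ± 218. Cells with *Lfng* reads were brighter in 4 captures, by 238 in capture 19c, 369 in capture 32, 31.7 in capture 40 and 235 in capture 9c. They were dimmer in 3 captures, by 115 in capture 28, 236 in capture 36 and 32.7 in capture 38. The mean difference was smaller than its spread and ran from 20.0 without capture 32 to 121 without capture 36 (with all 7 captures, exact two-sided sign-flip permutation test, p = 0.438, adjusted p = 0.525). All 3 captures at P60 were positive and 3 of 4 at P120 were negative. Captures 19c and 9c were sequenced in run S047, and capture 40 and all P120 captures in runs S059. Age thus cannot be told apart from sequencing run in this pattern. In the captures of runs S059 alone the mean difference was 3.40.

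Within captures of at least 6 considered cells, Spearman's correlation of *Lfng* CPM with GFP intensity ran from -0.558 in capture 36 (11 cells) to 0.618 in capture 9c (18 cells) and 0.617 in capture 32 (21 cells). In capture 28, the capture with the most cells (31), it was 0.00740. These are descriptions over cells of shared pools, and their sign differed between captures. Whether the captures differed beyond the scatter of their cells was not tested.

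**Figure D2:**
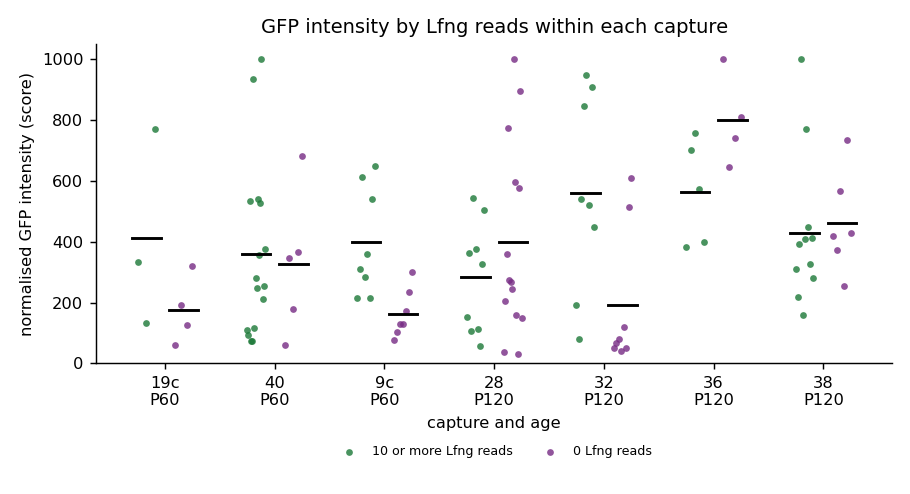
Normalised GFP intensity (score, vertical) of each cell in the 7 captures compared (horizontal, with age), with 10 or more *Lfng* reads in green and 0 reads in purple. Black bars are the means of the cells, whose difference runs from -236 in capture 36 to 369 in capture 32.

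Of the Notch pathway, the receptor gene *Notch2* set the sides apart most clearly at equal depth. *Notch2* (ENSMUSG00000027878.11, chromosome 3 from 98013527 to 98150361) encodes a single-pass receptor, a class of protein that fringe enzymes modify. After thinning every cell to 50000 reads, a *Notch2* read was found in 67 of 84 cells with 10 or more *Lfng* reads (79.8%), in 18 of 28 with 1 to 9 reads (64.3%) and in 18 of 52 with 0 reads (34.6%). The share was higher on the side with *Lfng* in 7 of 7 captures. It was 3 of 3 against 1 of 4 cells in capture 19c, 14 of 16 against 3 of 5 in capture 40 and 6 of 8 against 2 of 7 in capture 9c. At P120 it was 8 of 9 against 5 of 14 in capture 28, 4 of 8 against 2 of 8 in capture 32, 4 of 5 against 1 of 4 in capture 36 and 11 of 11 against 3 of 6 in capture 38. As a mean over captures, 83.1% ± 17.3 of cells with *Lfng* and 35.6% ± 14.1 of cells without held a *Notch2* read (SD, n = 7). The ages gave like shares, 40 of 51 against 7 of 20 cells at P60 and 27 of 33 against 11 of 32 cells at P120.

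This scale was added after the values were seen, so it was fitted over all genes and not for *Notch2* alone. Among 4508 genes, *Notch2* had the largest difference in share, 45.1 percentage points, where the median gene differed by 3.30 points in the same direction. limma on the log2 odds of a read, with capture as block, gave *Notch2* a log2 odds ratio of 2.88 (standard error 0.630, unadjusted p = 2.77e-05), the smallest p of all genes. The adjusted p was 0.0739, which missed 0.05. In that fit 0 of 4508 genes (0.0%) passed an adjusted p of 0.05 and 325 (7.21%) had an unadjusted p under 0.05. The share was higher in every capture for 20 genes (0.444%) and lower in every capture for 1 gene (0.0222%).

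The result was as large without the cells that carried basophil or mast cell genes, described below: 64 of 80 cells against 10 of 35 (28.6%). Among cells with at least 200000 reads it was 79.8% against 31.1%. With sides drawn after thinning, where cells that lost their *Lfng* reads count as 0, it was 58 of 75 (77.3%) against 45 of 89 (50.6%). The level of *Notch2* gave no call. Summed over the cells of a side, it ran from 129 through a median of 504 to 1753 CPM with *Lfng* and from 8.95 through 259 to 1661 CPM without. It was higher in 5 captures and the groups overlapped (edgeR's quasi-likelihood test, log2 fold change 1.26, standard error 1.42, adjusted p = 0.999). More cells with *Lfng* thus held a *Notch2* read, while the level was too variable to be called different or alike. Neither scale passed its threshold after adjustment.

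**Figure D3:**
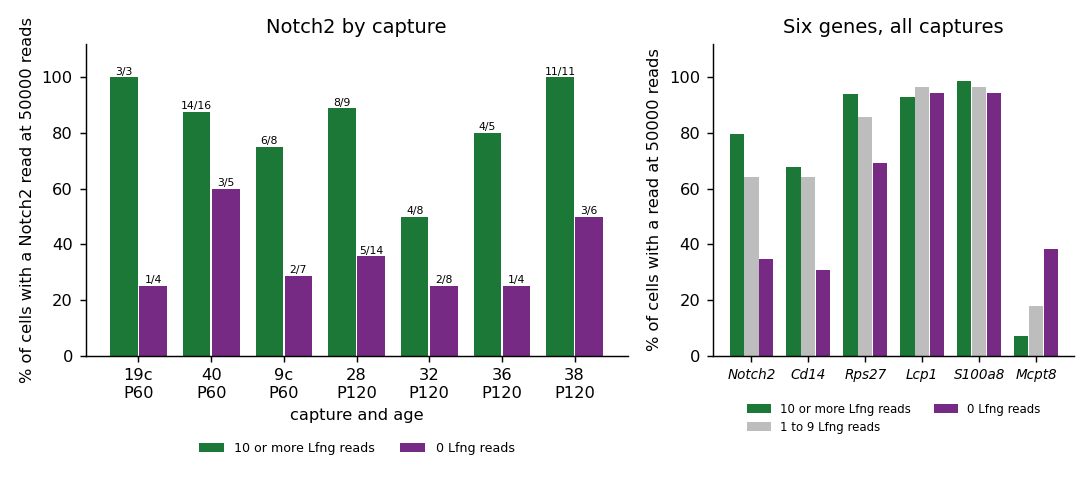
Left, the percentage of cells with a *Notch2* read after thinning to 50000 reads (vertical) in each capture (horizontal, with age), with 10 or more *Lfng* reads in green and 0 in purple, and the number of cells above each bar. Right, the same percentage over all captures for 6 genes, with 1 to 9 *Lfng* reads in grey. *Notch2* falls from 79.8% to 34.6% between the sides, whereas the leukocyte gene *Lcp1* lies at 92.9% and 94.2%.

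Other Notch genes were sparse. Of 50 genes in 8 lists of the pathway, 45 had a read in any cell and 17 passed the filter for low counts. None of the 17 passed an adjusted p of 0.05 in edgeR, 0 had an unadjusted p under 0.05, and 0 passed in DESeq2. Their log2 fold changes were positive for 8 and negative for 9, with a median of -0.12 against 0.68 over all genes tested. *Notch1*, the other receptor tested, was held at 50000 reads by 12 of 84 and 5 of 52 cells. Its level ran up to 136 CPM with *Lfng* and up to 14.8 CPM without (log2 fold change 0.28, standard error 2.09, adjusted p = 0.999). Of the *Notch1* reads with *Lfng* in the captures compared, 95.2% came from 1 cell. *Notch3* had 1 read on each side and *Notch4* had 1 read and 24 reads.

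Among the ligands, *Jag1* alone had more than 1 read on a side, found at 50000 reads in 12 of 84 cells (14.3%), 8 of 28 cells with 1 to 9 reads (28.6%) and 4 of 52 cells (7.69%). *Dll1*, *Dll3* and *Jag2* had 0 reads on both sides, and *Dll4* had 1 read on each. The other fringes, which act on the same fucose, did not pass the filter: *Mfng* had reads in 8 and 2 cells and *Rfng* in 8 and 6 cells. Of the sugar pathway, only *B4galt1*, which adds galactose to the sugar that fringe transfers, was tested (log2 fold change -0.12, standard error 1.67, adjusted p = 0.999).

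Of the cleavage genes, the protease gene *Adam10* had a log2 fold change of 1.66 (standard error 1.90) and *Psen2*, a catalytic gene of gamma-secretase, 3.32 (standard error 2.67). *Adam17* had -1.06 and *Aph1b* -2.55, and none passed the test. In the nucleus *Rbpj* had 0.95 (standard error 2.16) with 16 of 84 and 7 of 52 cells at 50000 reads, and the acetyltransferase gene *Kat2b* had -2.91. The ubiquitin ligase gene *Dtx3l* had the smallest p of the pathway (log2 fold change 5.27, standard error 2.77, unadjusted p = 0.0568, adjusted p = 0.999). The targets were nearly silent in cells with *Lfng*: *Hes1*, *Hes5*, *Heyl*, *Nrarp* and *Dtx1* had 0 reads, *Hey2* had 1 read and *Hey1* had 463 reads in 1 cell. That cell was the one of capture 21c with 20113 *Tectb* reads, outside the captures compared. In cells without *Lfng*, *Hes1* had 2 reads in 1 cell and *Dtx1* had 8 reads in 1 cell.

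Across all genes no difference between the sides passed the threshold on the sums per capture. edgeR's quasi-likelihood test with capture as block called 0 of 4508 genes higher (0.0%) and 0 lower (0.0%) at an adjusted p of 0.05, while 122 genes (2.71%) had an unadjusted p under 0.05. DESeq2 on the same sums called 149 genes higher (3.31%) and 51 lower (1.13%). The smallest edgeR p was that of the lysosomal gene *Cd68* (unadjusted p = 0.00106, adjusted p = 0.999), whose CPM was higher in 6 captures and was 1.94 against 682 in capture 38. Cells of 1 side differed strongly within a capture, so that a sum often rested on 1 cell. Of the *Cd68* reads without *Lfng*, 98.9% came from 1 cell.

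CPM was higher on the side with *Lfng* in 7 of 7 captures for 31 genes (0.688%) and lower in 7 of 7 for 6 genes (0.133%). Signs drawn at random would agree in all 7 captures for a fraction of 0.0156 of genes, both directions counted. Both shares together lie below this fraction, so the genes are described and not called. The 10 higher genes with the smallest p and all 6 lower genes are given here, and all of them missed the edgeR threshold (adjusted p = 0.999). *Klhl9*, an adaptor of a ubiquitin ligase, had 222.5 through 550.5 to 3428 CPM with *Lfng* and 0 through 3.39 to 366 CPM without (log2 fold change 5.30, standard error 1.84). The groups overlapped across captures although each capture had the same order. At 50000 reads 43 of 84 and 18 of 52 cells held it. *Ezr*, which encodes ezrin, a linker of membrane and actin, had 133 through 305 to 2036 CPM against 0 through 20.1 to 102.7 CPM (log2 fold change 5.03, standard error 1.83). Here every capture with *Lfng* lay above every capture without. *Cyb5a*, a haem protein of the endoplasmic reticulum, had 59.995 through 119 to 2066 CPM against 0 through 3.79 to 120 CPM (log2 fold change 5.22, standard error 1.94).

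*Gadd45b*, a stress-induced gene, had 6.79 through 23.6 to 153 CPM against 0 through 0.316 to 13.2 CPM (log2 fold change 5.43, standard error 2.11), and 21 of 84 against 2 of 52 cells held it at 50000 reads. *Rap1gds1*, an exchange factor of small GTPases, was held by 15 of 84 and 2 of 52 cells and its share was also higher in 7 of 7 captures. The other genes on this side were *Vps29* of the retromer, the transcription factor gene *Nfatc1*, the haem synthesis gene *Alas1*, *Cnppd1* and the pro-apoptotic gene *Pmaip1*, with log2 fold changes from 5.00 for *Nfatc1* to 5.71 for *Alas1*. At 50000 reads 13 of 84 and 4 of 52 cells held *Pmaip1*, 21 and 4 held *Cnppd1*, and 30 and 10 held *Alas1*. The shares lay closer together for *Nfatc1*, with 21 of 84 and 12 of 52 cells, and for *Vps29*, with 22 and 11. In the captures compared, 1 cell gave 64.96% of the *Nfatc1* reads with *Lfng* and 73.98% of the *Rap1gds1* reads. Among the other higher genes given here, this part ran from 13.41% for *Klhl9* to 40.49% for *Gadd45b*.

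Lower in all 7 captures with *Lfng* was *Emilin2*, an extracellular matrix glycoprotein gene, with 0 through 11.1 to 74.96 CPM against 45.2 through 418 to 575 CPM (log2 fold change -5.28, standard error 2.00). At 50000 reads 12 of 84 and 18 of 52 cells held it. The immediate early gene *Ier3* had 0 through 72.97 to 121 CPM against 8.12 through 198 to 1924 CPM (log2 fold change -4.96, standard error 1.93). *Rbm38*, an RNA-binding protein gene, had 0 through 1.12 to 13.9 CPM against 2.06 through 68.3 to 602 CPM (log2 fold change -5.30, standard error 2.02), with 16 of 84 and 11 of 52 cells. *Tagap*, *Hcls1* and *Bcl10*, all of leukocyte signalling, had log2 fold changes of -5.70, -2.71 and -3.14. DESeq2 called all 16 of these genes, but it was fitted to the same sums from which they were chosen. This call therefore adds no independent support.

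**Figure D4:**
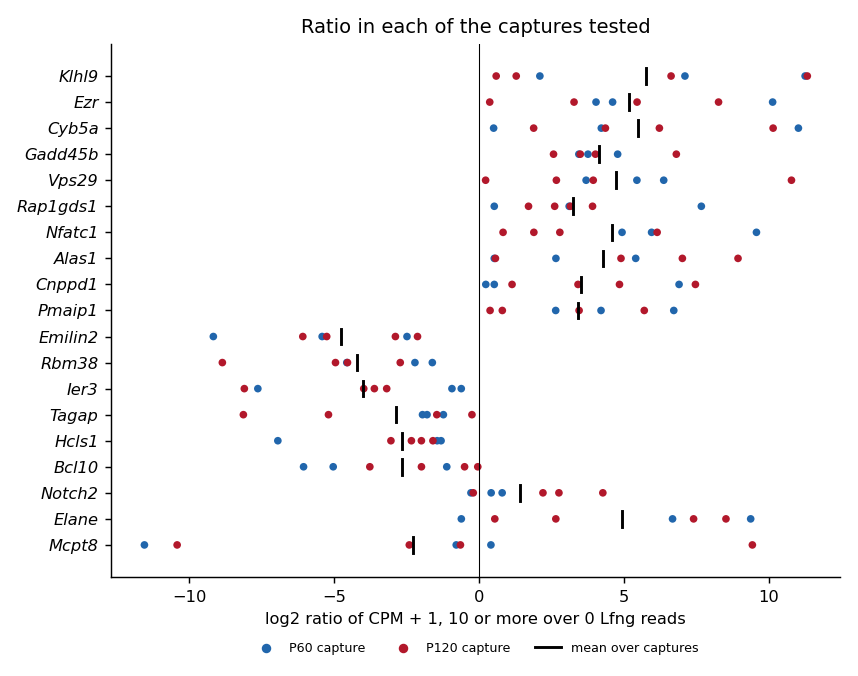
Log2 ratio of CPM + 1 between the sum of cells with 10 or more *Lfng* reads and the sum of cells with 0 reads (horizontal), 1 point per capture in blue at P60 and red at P120, with the mean as a black bar, for the 16 genes with 1 direction in 7 captures and for *Notch2*, *Elane* and *Mcpt8*. Ratios of a gene spread over several log2 units, as for *Mcpt8*, whose captures lie on both sides of 0.

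The shares at equal depth gave a different order of genes. Beside *Notch2*, the share was higher in 7 of 7 captures for *Cd14*, a co-receptor for bacterial lipopolysaccharide on myeloid cells, with 57 of 84 (67.9%) against 16 of 52 cells (30.8%) and a limma adjusted p of 0.475. *Ost4*, a subunit gene of the oligosaccharyl transferase, had 37 of 84 against 4 of 52 cells (log2 odds ratio 2.74, standard error 0.605, adjusted p = 0.0739), in 6 captures. The ribosomal protein gene *Rps27* had 79 of 84 against 36 of 52 cells (adjusted p = 0.163). *Cd14* and *Ost4* were chosen after their values were seen.

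A list of 13 genes that the study itself singled out, *Notch1* and *Notch2* among them, was not chosen independently of these cells. None of the 13 passed in edgeR. *Slc2a3*, a glucose transporter gene, had 0 through 15.3 to 1115 CPM with *Lfng* and 44.9 through 358 to 3408 CPM without. It was lower in 6 of 7 captures, capture 28 being the exception (log2 fold change -4.67, standard error 1.98, unadjusted p = 0.0181, adjusted p = 0.999), and DESeq2 gave an adjusted p of 0.00145. *Myh9*, a non-muscle myosin gene, was held by 82 of 84 and 49 of 52 cells at 50000 reads (log2 fold change -0.12, standard error 1.03). *Lcp1*, the leukocyte actin-bundling gene, was held by 78 of 84 and 49 of 52 cells (log2 fold change -0.15, standard error 1.10). *Cdkn1b*, *Dstn*, *Spry2* and *S100a1* had positive log2 fold changes from 0.98 to 3.77, *Tuba1b* had -1.07, and *Nlrp3*, *S100a6* and *Pla2g7* lay between -0.26 and 0.18.

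The marker lists of other cell types describe which genes were read on the sides. A cell could meet the cut for more than 1 list, so the shares do not assign cells to types. In capture 28, for example, 13 of 14 cells with 0 *Lfng* reads met it for late neutrophil genes and 7 of 14 for basophil and mast cell genes. At 50000 reads at least 3 of 10 leukocyte genes were found in 83 of 84 cells (98.8%) and in 52 of 52, and at least 3 of 12 late neutrophil genes in 80 of 84 (95.2%) and 46 of 52 (88.5%). *S100a8*, a calcium-binding protein gene of neutrophils, had a mean of 40526 CPM with *Lfng* and 48647 CPM without (log2 fold change -0.10, standard error 0.628). At least 3 of 6 specific granule genes, such as *Ngp* and *Camp*, were found in 54 (64.3%) and 36 (69.2%) cells. At least 3 of 11 granulocyte precursor genes were found in 28 (33.3%) and 21 (40.4%).

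The clearest difference among the lists was in basophil and mast cell genes. At least 3 of 8 genes, which include the proteases *Mcpt8* and *Prss34*, the IgE receptor genes *Fcer1a* and *Ms4a2* and the factor gene *Gata2*, were found in 4 of 84 cells with *Lfng* (4.76%), 4 of 28 cells with 1 to 9 reads and 17 of 52 cells with 0 reads (32.7%). By capture, cells with *Lfng* against cells without counted 1 of 9 against 7 of 14 in capture 28, 1 of 8 against 6 of 8 in capture 32, 0 of 8 against 2 of 7 in capture 9c, 1 of 5 against 1 of 4 in capture 36 and 1 of 11 against 0 of 6 in capture 38. Captures 19c and 40 had none. Of the 17 cells 14 were from P120, and 13 came from captures 28 and 32. No test was made of a list.

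Each of the 8 genes was held by a larger share of the cells without *Lfng*. At 50000 reads *Mcpt8* was held by 6 of 84 and 20 of 52 cells, *Fcer1a* by 3 and 11, *Cpa3* by 4 and 15 and *Gata2* by 2 and 11. In level *Mcpt8* ran up to 3873 CPM with *Lfng* and up to 20579 CPM without, with medians of 2.69 and 4.77 CPM, and was lower in 5 captures (log2 fold change -2.11, standard error 1.49, adjusted p = 0.999). *Prss34* had a log2 fold change of -1.98 (standard error 1.29). *Hdc*, the histidine decarboxylase gene, which other granulocytes also use, was held by 58 of 84 and 41 of 52 cells. Among the cells with 0 *Lfng* reads, the 17 cells had a median of 945460 reads on genes and the other 35 had 585053, and the part of depth in the difference was not tested. Their GFP intensity had a median of 128 against 319. Without cells of this kind 80 and 35 cells remained, and capture 32 fell below the minimum of 3 cells with 0 *Lfng* reads. The mean GFP difference over the other 6 captures was 27.2 (exact permutation p = 0.906). It was 20.0 when capture 32 alone was left out with all other cells kept, so the smaller value is not a measure of these cells. Without cells of this kind edgeR still called 0 genes, with 98 at an unadjusted p under 0.05.

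**Figure D5:**
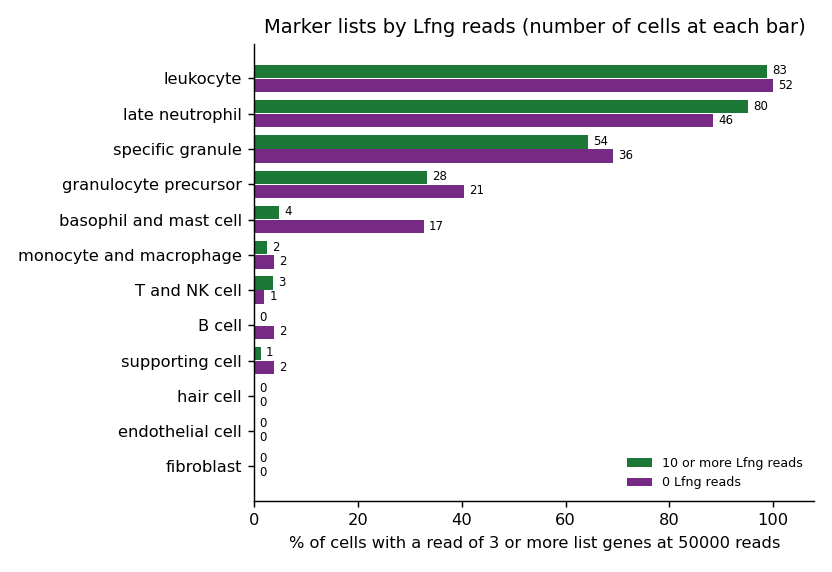
Percentage of cells with a read of at least 3 genes of a marker list after thinning to 50000 reads (horizontal) for 12 lists (vertical), with 10 or more *Lfng* reads in green and 0 in purple, and the number of cells beside each bar. The basophil and mast cell list stands at 4.76% against 32.7%, whereas the late neutrophil list stands at 95.2% against 88.5%.

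Granulocyte precursor genes had positive log2 fold changes. Over all captures the share of cells with a read was higher with *Lfng* for 5 of the 11 genes of the list and lower for 6. *Elane*, the neutrophil elastase gene, had 1.50 through 1493 to 9122 CPM with *Lfng* and 0.716 through 12.8 to 71.8 CPM without, and was higher in 6 of 7 captures, all but 19c (log2 fold change 5.41, standard error 1.75, unadjusted p = 0.00194, adjusted p = 0.999). At 50000 reads 24 of 84 (28.6%) and 20 of 52 cells (38.5%) of all captures held it. Over the 7 captures compared the mean shares were 30.4% and 33.1%, higher with *Lfng* in 3 captures and lower in 4. The higher level was thus not matched by a higher share of cells. *Elane* was the 1 gene that edgeR called when captures needed 5 cells a side, or when the capture was not in the fit. *Prtn3*, its neighbour in the granule and on chromosome 10, had a log2 fold change of 6.46 (standard error 2.44) and was held by 20 of 84 and 5 of 52 cells. *Mpo*, the myeloperoxidase gene, had 1.97 (standard error 1.45) and *Ms4a3* 2.04 (standard error 1.96). All 9 genes of the list that were tested had a positive log2 fold change, with a median of 1.97 against 0.68 over all genes, and 0 passed the threshold. *Elane* and *Prtn3* were looked at with their values known.

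The remaining lists held few cells of either side. At least 3 genes were found in 2 and 2 cells for monocytes and macrophages, 3 and 1 for T and NK cells, 0 and 2 for B cells, 1 and 1 for glia, and 0 and 0 for dendritic, erythroid and endothelial cells, fibroblasts and hair cells. The SC list reached 3 genes at this cut, which asks for 1 read a gene, in 1 and 2 cells. *Ly6c2* of the monocyte list was held by 37 of 84 and 15 of 52 cells (log2 fold change 3.16, standard error 2.01). Of the 3 genes of that list tested, 2 had a positive log2 fold change, and DESeq2 called 1 higher and 1 lower. *Csf1r* of the same list was held by 7 and 4 cells, and its share was higher in 1 capture and lower in 3. *Mbp* of the glial list was held by 14 and 2 cells (log2 fold change 5.97, standard error 2.57, adjusted p = 0.999).

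Of 18 cell cycle genes tested 10 had a positive log2 fold change, with a median of 0.23, and *Mki67*, a marker of cycling cells, was lower in 6 captures (log2 fold change -2.26, standard error 1.86). Of 13 immediate early and stress genes tested 8 were positive (median 0.61), with 1 gene, *Ier3*, lower in all 7 captures and 1 gene, *Egr1*, higher in all 7. *Egr1*, a transcription factor gene named here after its values were seen, had 841 through 1641 to 3689 CPM against 174 through 589 to 2538 CPM (log2 fold change 1.17, standard error 1.09, adjusted p = 0.999). The 80 ribosomal protein genes had a median of 0.25 with 48 positive, and the 18 mitochondrial genes a median of -0.51 with 5 positive. No gene of these lists passed the test. Of the 4 genes tested that start close to *Lfng* on chromosome 5, *Ttyh3* had 0.42 and *Chst12* -1.89, and none passed.

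*Lfng* itself was compared between the ages over captures with at least 3 considered cells. The mean level per capture was 45.03 ± 52.9 CPM at P120 (n = 4) and 53.4 ± 31.3 CPM at P60 (n = 6). The difference of -8.37 CPM did not pass the exact two-sided permutation test (p = 0.724, adjusted p = 0.724, smallest p possible 0.00476). The levels at P120 were 11.8, 18.4, 26.1 and 124 CPM, the last in capture 36, and those at P60 ran from 26.6 CPM in capture 31 through 36.8, 42.3, 44.01 and 56.7 to 114 CPM in capture 20c. Cells with 10 or more *Lfng* reads made up 29.03%, 38.1%, 45.5% and 52.4% of the considered cells of the P120 captures and 40.0% to 100% at P60. The means were 41.2% ± 10.0 and 62.04% ± 23.8 (SD), and the difference of -20.8 points did not pass (exact two-sided permutation p = 0.138, adjusted p = 0.414). In captures 17c and 20c every considered cell, 2 and 7, had 10 or more reads. Of the P60 captures only 31 and 40 were sequenced in runs S059, as were all P120 captures, and the others were in run S047. Age and sequencing run were therefore partly confounded. The effect of the side on any gene did not differ between the ages at the threshold: the interaction term of edgeR called 0 of 4508 genes, with 39 at an unadjusted p under 0.05.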

How the data were processed

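Reads of Fluidigm C1 single-cell libraries were aligned by the authors with STAR to GRCm38 and deposited as raw counts per gene, without molecular identifiers. The GFP intensity was deposited as a score, and its scaling is not given in the sources used here. Endothelial and outlier cells had been removed before deposit. The 92 spike-ins were left out, and 48349 of 48709 identifiers were matched to symbols in GENCODE vM21. CPM are counts scaled to an equal total of reads on genes. Counts were summed per capture and side and tested with edgeR 4.0.16 (quasi-likelihood, TMM, filterByExpr, capture as block, Benjamini-Hochberg at 0.05), *Lfng* left out. DESeq2 1.42.0 and limma 3.58.1 were alternatives. Standard errors are the log2 fold change divided by the root of F. Single measures were tested by exact permutation over captures. Tests were checked on simulated data. Intervals cover counting error only, since reads are not molecules. No doublet caller was run. Named genes were the 10 with the smallest p and 1 direction in every capture, all tested Notch genes and genes the study singled out, and up to 3 per list. Members and lists were chosen with earlier results of these data known.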

Additional observations from a re-analysis of the deposited data

Results flagged for a closer look

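Captures that lay far from the others of their set by Dixon's criterion were found in 13 of 92 sets, where chance gives about 1 in 20. For the mean *Lfng* level these were capture 20c at P60, with 114 CPM, and capture 36 at P120, with 124 CPM. In 11 of 84 genes 1 capture stood apart in the log2 ratio of CPM + 1 between the sides. In capture 38 the ratio was 8.85 for *Adam10*, -7.86 for *Cd68*, 8.59 for *Top2a*, 8.30 for *Tuba1b* and 7.75 for *mt-Cytb*. In capture 32 it was 6.09 for *S100a8* and 6.09 for *S100a9*. Of its 8 cells with 0 *Lfng* reads, 6 carried basophil and mast cell genes, whose part in these ratios was not tested. It was 7.77 for *Btg2* in capture 28, 7.02 for *Eif3b* in capture 9c, -6.94 for *Hcls1* in capture 19c and -4.07 for *Rps9* in capture 36. Of the 47 cells with fewer than 50000 reads, which entered no comparison, 8 held a *Lfng* read, with 11 reads in all and at most 3 in a cell.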

How the results depend on the processing

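Of the results over captures and genes, 124 of the alternative values kept their direction and their side of the threshold. Another 4 counts of called genes moved, 4 values changed direction and 3 passed the threshold where the main value did not. Many of the 124 are edgeR settings where 0 calls stayed 0, which have no direction to keep. edgeR called 1 gene higher, *Elane*, with at least 5 cells a side and 1, *Elane* again, with no replicate block, against 0 with capture as block. DESeq2 called 149 genes higher and 51 lower. The cause was not tested. With each capture left out in turn edgeR called 0 genes, with 61 to 179 at an unadjusted p under 0.05. The difference in mean log10 reads, which the choice of sides favours, was 0.281 with at least 1 cell a side and 0.360 without capture 36, with a range of 0.204 to 0.360 over the 7 captures left out. The age difference in mean *Lfng* level changed sign with the captures of sequencing runs S059 alone (9.72 CPM) and without capture 20c, 28 or 32, with a range of -34.7 to 3.76 CPM over the 10 captures left out. Without capture 36 it was -34.7 CPM (exact permutation p = 0.0833). The age difference in share reached -23.8 points with 1 or more *Lfng* reads after thinning (exact permutation p = 0.0381). The GFP difference was 3.40 in the 5 captures of runs S059. Ranges without 1 capture were 20.0 to 121 for GFP intensity, 56.7 to 368 for genes per cell, -1.57 to -0.114 points for mitochondrial reads and -25.2 to -13.2 points for the age difference in share. Of 84 named genes, 51 changed sign under at least 1 alternative. *Notch2* did not under 23 alternatives. The 16 genes chosen for 1 direction in every capture did not either, which that choice largely fixes. The median log2 fold change over all genes was 0.68, and ran from -0.58 with sides drawn after thinning to 1.06 with at least 1 cell a side, so a value near it is no difference from the other genes. For the comparisons of sides, the settings with runs S059, equal weight per cell, shares of cells and without basophil cells were added after the data were seen. Standard errors of the named genes ran from 0.607 for *S100a9* to 3.36 for *Aph1b* on the log2 scale.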

Other observations

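The cells with 1 to 9 *Lfng* reads, which entered no comparison, lay between the sides in some measures and outside both in others. Their median depth was 931962 reads on genes, their median GFP intensity 355 and their median mitochondrial share 0.995%. A *Cd14* read was found at 50000 reads in 18 of 28 (64.3%), near the share of the cells with 10 or more *Lfng* reads, and a *Mcpt8* read in 5 of 28 (17.9%). Outside both sides lay their median of 1223.5 genes at 50000 reads, against 1090 with 10 or more *Lfng* reads and 1025.5 with 0. The same held for the share with at least 3 specific granule genes, 78.6% against 64.3% and 69.2%.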
